A study of Mus musculus with 16 samples.

Results

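Gpr84 and Hcar2 encode cell-surface receptors that respond to small metabolites, and they are 2 of the 55385 genes counted in the hippocampus of mice carrying Alzheimer disease transgenes, a Down syndrome duplication, or both. They were picked by gene name, and they were chosen by their measured counts, which were already known to be higher with the transgenes than without. The levels with and without the transgenes are therefore given as a description with no test. Tests are kept for the effect of the duplication (for Hcar2 only where the transgenes are present), for its interaction with the transgenes (Gpr84 alone), and for sex.

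Gpr84 is a receptor for medium-chain fatty acids. Hcar2, also known as GPR109A, is the receptor for the vitamin niacin and for the ketone body beta-hydroxybutyrate. Both signal through Gi proteins, which lower cyclic AMP, and both are found on cells of the myeloid lineage (microglia, macrophages and neutrophils), where inflammatory stimuli raise them. Hcar2 is also well known from fat cells, where it restrains the breakdown of stored fat. In the brain, microglia are the resident myeloid cells and gather around amyloid plaques.

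The 16 libraries were made from polyadenylated RNA of the hippocampus at 5 months of age, 4 per genotype. The wild-type mice were C57BL/6J. Dp16 mice carry a duplicated segment of mouse chromosome 16 and model Down syndrome. 5xFAD mice carry transgenes of human origin, including APP, that bear mutations of familial Alzheimer disease and are driven by the Thy1 promoter, which is active in neurons. 5xFAD-Dp16 mice carry both. Wild-type, Dp16 and 5xFAD had 2 males and 2 females each, and all 4 5xFAD-Dp16 mice were male, so contrasts with that group lean on a sex term estimated in the other genotypes. Libraries held 15.8 to 25 M counts (M, mega). Nothing in the labels says outright that each library came from its own animal, so the p-values reflect differences among libraries, which may be partly technical.

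Neither gene lies in the duplicated segment. Gpr84 (ENSMUSG00000063234.5) spans chromosome 15 from 103308235 to 103310612 on the minus strand in GRCm38, with 1 annotated transcript of 2 exons, 1725 bases of exon and a coding part of 1188 bases held in 1 exon. Hcar2 (ENSMUSG00000045502.6) is a single-exon gene on chromosome 5 from 123863570 to 123865499, also on the minus strand, 1930 bases long with 1080 coding bases. Its relative Hcar1, the lactate receptor, lies 11.2 kb away, measured as the gap between the 2 genes. The antisense gene Gm49482 overlaps Gpr84. It held 0 to 5 counts per library, against 2 to 90 for Gpr84, and reads in the overlap may have been given to either gene or to neither, since the strand setting of the counting is not known here.

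The sequence at the start of Gpr84 is shown because the gene differed in level between genotypes. The RefSeq window (GRCm38.p6, chr15:103310389-103310688, minus strand) covers 250 bases before the start and 50 after it, written 5′ to 3′ along the gene. No capitals appear, since none of the motifs searched was found.
Gpr84: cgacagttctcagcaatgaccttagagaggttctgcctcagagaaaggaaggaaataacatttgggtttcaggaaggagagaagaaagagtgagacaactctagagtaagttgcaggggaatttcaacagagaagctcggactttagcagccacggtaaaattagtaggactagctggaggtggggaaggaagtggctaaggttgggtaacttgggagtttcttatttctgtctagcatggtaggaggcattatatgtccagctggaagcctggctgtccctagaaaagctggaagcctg
Both strands were searched for GAGGAA (the core of the PU.1 site), TGANTCA (AP-1), GGAANNNCC (NF-kB) and TTGCNNAA (C/EBP), factors active in myeloid cells. The window held 0 matches to each of them. Over the 32851 RefSeq promoter windows of the same length, 28.3% held the PU.1 letters, 7.81% those of AP-1, 18.5% those of NF-kB and 10.8% those of C/EBP. The absence says no more than that these letters are not in this window.

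Gpr84 was detected in every library, at a low level. Wild-type libraries gave 18, 22, 15 and 27 counts and Dp16 libraries 2, 4, 2 and 17. The 5xFAD libraries gave 90, 52, 64 and 52 counts and the 5xFAD-Dp16 libraries 78, 76, 60 and 26. Every library with the transgenes lay above every wild-type and Dp16 library after scaling for library size. The share of all tested genes that separate in this way was not counted, so nothing is read from the separation of either receptor. In CPM, counts scaled to library sizes adjusted by the trimmed mean of M values (TMM), wild-type averaged 0.932 ± 0.230 and Dp16 0.279 ± 0.277. The 5xFAD mean was 3.70 ± 1.43 and the 5xFAD-Dp16 mean 3.02 ± 1.25 (SD over 4 libraries). The ratio of mean CPM was 3.97 for 5xFAD against wild-type, 3.24 for 5xFAD-Dp16 against wild-type and 10.8 for 5xFAD-Dp16 against Dp16. Dp16 replicate 4 lowered the last of these ratios, which was 21.3 without that library, a check added after the data were seen. The closest libraries across the transgene divide were 5xFAD-Dp16 replicate 4 at 1.37 CPM and wild-type replicate 4 at 1.22 CPM.

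Hcar2 was rarer and closer to on or off. All 4 wild-type libraries held 0 counts, which allows up to 3 counts in the group, or 0.0341 CPM before TMM scaling. Dp16 libraries held 1, 0, 4 and 2 counts. The 5xFAD libraries held 8, 12, 14 and 19 counts and the 5xFAD-Dp16 libraries 21, 8, 35 and 17. As for Gpr84, all 8 libraries with the transgenes lay above all 8 without them. Mean CPM was 0.0964 ± 0.107 for Dp16, 0.725 ± 0.180 for 5xFAD and 1.05 ± 0.597 for 5xFAD-Dp16 (SD over 4 libraries). Taking 3 counts over the wild-type group as the floor, pooled Hcar2 was 22.3 times that floor in 5xFAD and 29.6 times in 5xFAD-Dp16. These ratios are not lower bounds, since they leave out the counting error of the transgene groups. The two-sided exact Poisson 95% limit for the wild-type total of 0 is also higher, at 3.69 counts. Against Dp16, the 5xFAD-Dp16 mean was 10.9-fold higher, and 22.9-fold higher without Dp16 replicate 3, which held 4 of the 7 Dp16 counts. Hcar2 passed the filter on low counts through the transgene groups alone, so its groups had to differ. The shares of the 16684 tested genes called higher (edgeR, adjusted p below 0.05) were 0.965% in 5xFAD against wild-type, 0.983% in 5xFAD-Dp16 against wild-type and 0.827% in 5xFAD-Dp16 against Dp16. Since these contrasts chose the 2 receptors, nothing is read from their place among those genes.

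**Figure D1:**
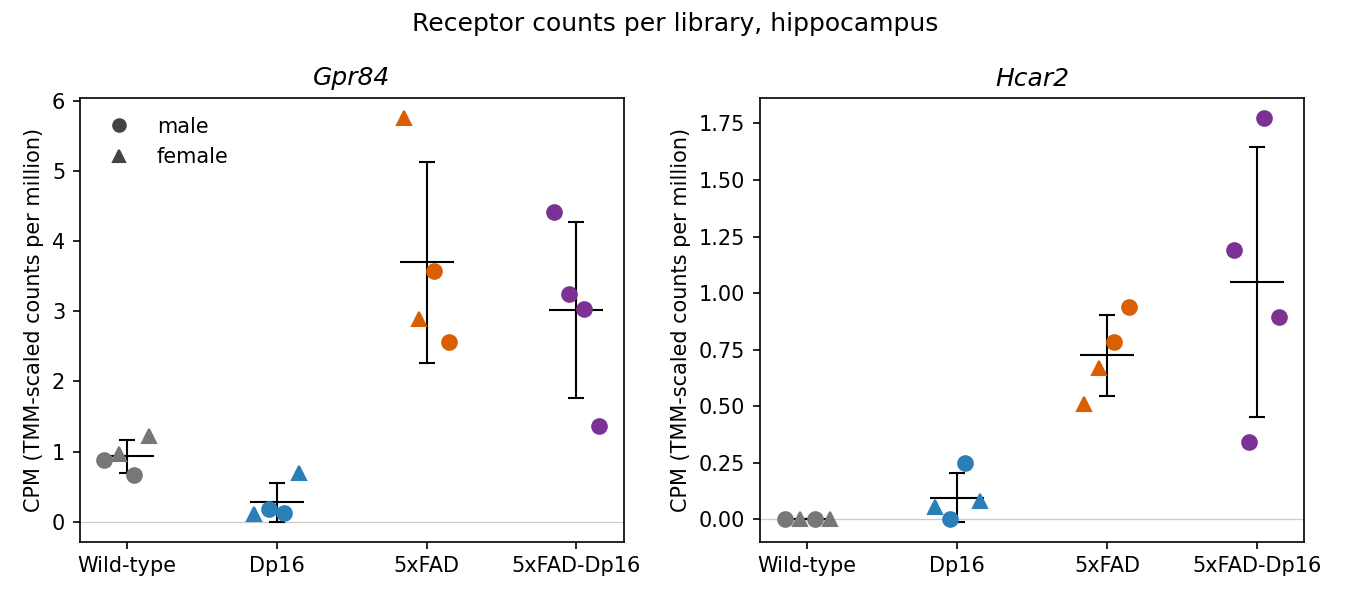
CPM of Gpr84 (left) and Hcar2 (right) in each of the 16 libraries, by genotype. Circles are males and triangles females, and the bar and whiskers give the mean ± SD of 4 libraries. For both genes all libraries with the transgenes lie above all those without, and Hcar2 sits at 0 in the 4 wild-type libraries.

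Per gene length, Gpr84 was the more abundant of the pair in all 8 libraries with the transgenes. In RPKM (counts divided by exon length and library size, as the authors deposited), Gpr84 averaged 0.547 for wild-type, 0.161 for Dp16, 2.18 for 5xFAD and 1.74 for 5xFAD-Dp16. The ratio of Gpr84 to Hcar2 RPKM varied widely, from 1.71 in 5xFAD-Dp16 replicate 4 to 12.6 in 5xFAD replicate 1. Both genes varied among the 5xFAD-Dp16 libraries. For Hcar2, replicate 2 had 8 counts (exact Poisson 95% interval 3.45 to 15.8) and replicate 3 had 35 (24.4 to 48.7). For Gpr84 in the same genotype, replicate 4 had 26 counts (16.98 to 38.1) and replicate 1 had 78 (61.7 to 97.3). These intervals cover counting error alone, on raw counts of libraries that differ in depth.

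Some libraries stood apart. Score here means the mean over a marker list of log2 CPM relative to all libraries. Wild-type replicate 4, 5xFAD replicate 2 and 5xFAD-Dp16 replicate 3 had midbrain and hypothalamus scores of 1.49, 4.28 and 2.83, where the other libraries did not exceed 0.268. Hippocampal neuron markers were present in all 16 libraries, with a summed level of 542 to 1194 CPM. Their scores were lowest in these same 3 libraries, at -1.19, -0.61 and -0.42 in the order above, with the next at -0.32. Without the 3 libraries, mean Gpr84 was 0.835 CPM in wild-type (n = 3), 3.96 in 5xFAD (n = 3) and 3.01 in 5xFAD-Dp16 (n = 3). Mean Hcar2 was then 0.743 CPM in 5xFAD and 0.808 in 5xFAD-Dp16, since the left-out 5xFAD-Dp16 library was the highest for Hcar2 at 1.77 CPM. Choroid plexus scores varied widely within every genotype. They ran from -2.96 to 2.38 in wild-type, -3.02 to 1.65 in Dp16, -2.36 to 2.15 in 5xFAD and -1.95 to 2.00 in 5xFAD-Dp16. Whether choroid plexus content bears on the receptor levels was not tested. Lastly, 5xFAD replicate 4 carried most neutrophil RNA markers above the rest, with 143 counts of S100a9 and 101 of S100a8, against at most 16 and 25 elsewhere. Mmp8 (1 count against up to 9 elsewhere) and Csf3r (143 against up to 333) were not higher in this library. That library was the lowest of its group for Gpr84 (2.56 CPM) and the highest for Hcar2 (0.937 CPM). Without it the 5xFAD means were 4.07 for Gpr84 and 0.654 for Hcar2.

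The first question put to a test was whether the duplication alters either receptor once the transgenes are present. In 5xFAD-Dp16 against 5xFAD, 9 of the 16684 genes passed (0.0539%), and neither receptor was among them. Gpr84 differed by log2 0.06 ± 0.41 (SE; edgeR quasi-likelihood test, adjusted p = 1.00), with a 95% interval of 0.571- to 1.91-fold. The plain CPM means lean the other way, 3.02 against 3.70, because the fitted value is corrected for sex. Without the sex term the log2 difference was -0.29. Hcar2 differed by log2 0.27 ± 0.69 (edgeR adjusted p = 1.00), with an interval of 0.428- to 3.40-fold. The 5xFAD-Dp16 libraries spanned the whole 5xFAD range for Hcar2, from 0.341 to 1.77 CPM against 0.511 to 0.937. The intervals leave room for changes of nearly 2-fold in Gpr84 and more in Hcar2, so similar levels are not shown.

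Without the transgenes, the Dp16 libraries had less Gpr84 than wild-type, by a difference that did not survive correction over all genes. Mean CPM was 3.34-fold lower in Dp16. The groups overlapped through 1 pair of libraries, Dp16 replicate 4 at 0.692 CPM and wild-type replicate 3 at 0.668. The other 3 Dp16 libraries lay at 0.112, 0.188 and 0.124 CPM, from 2, 4 and 2 counts. The fitted difference was log2 -1.68 ± 0.49 (edgeR adjusted p = 0.827), and Gpr84 ranked 70 of 16684 genes by p. Without Dp16 replicate 4 it was log2 -2.54 (edgeR adjusted p = 0.210). With no filter on low counts the adjusted p became 0.0119, a setting that called 210 genes in this comparison. With DESeq2 the adjusted p was 0.228, and with only the groups compared it was 0.894 in edgeR. On leaving out any single library the lowest edgeR adjusted p was 0.210. An exact two-sided permutation test of the CPM, added after the data were seen, gave p = 0.0571, where the smallest p for 4 against 4 is 0.0286. With the filter, 14 genes passed in this comparison (0.0839%). Hcar2 had 7 counts in Dp16 (exact Poisson 95% interval 2.81 to 14.4) and 0 in wild-type. That interval reaches below the 3 counts that a wild-type total of 0 allows, so no fold is given. Hcar2 did not pass (edgeR adjusted p = 0.990). That result is not read, since its size depends on how the zeros in wild-type are handled.

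The duplication effect was next compared with and without the transgenes. This interaction uses the same wild-type and transgene libraries that led to the choice of the genes. The Gpr84 difference was more positive with the transgenes than without, by log2 1.74 ± 0.66 (edgeR adjusted p = 1.00, rank 72 of 16684). For Hcar2 the interaction is not read, since its size depends on how the zeros in wild-type are handled. No gene passed in the interaction (0.0%), where 332 genes had an unadjusted p under 0.05 with edgeR and DESeq2 also called 0.

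Sex did not separate either receptor beyond its spread. Over all libraries and corrected for genotype, Gpr84 differed between females and males by log2 0.67 ± 0.36 (edgeR adjusted p = 0.874) and Hcar2 by log2 -0.55 ± 0.68 (edgeR adjusted p = 0.965). In this comparison 8 genes passed (0.048%). Within 5xFAD, the females had 5.75 and 2.90 CPM of Gpr84 and the males 3.58 and 2.56. For Hcar2 the 5xFAD order was reversed, with 0.511 and 0.668 CPM in the females and 0.782 and 0.937 in the males. No test was run within 5xFAD, where each sex had 2 libraries.

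Microglial markers rose with the transgenes as well, and in bulk tissue a larger number of cells and more RNA per cell cannot be told apart. Of 16 microglia markers, all tested, 11 rose in 5xFAD against wild-type, 7 in 5xFAD-Dp16 against wild-type and 10 in 5xFAD-Dp16 against Dp16. Their summed level was 656 to 747 CPM for wild-type, 653 to 712 for Dp16, 1207 to 1909 for 5xFAD and 1163 to 1412 for 5xFAD-Dp16. Of 16 tested markers of plaque-associated microglia, among them Cst7, Clec7a, Trem2 and Itgax, 9, 8 and 8 rose in the same comparisons. Over all tested genes 0.965%, 0.983% and 0.827% were called higher in these comparisons. The median log2 change of the microglia list was 0.85 in 5xFAD against wild-type, where that of all tested genes was 0.02. None of these 32 markers passed in 5xFAD-Dp16 against 5xFAD or in Dp16 against wild-type.

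Set against the microglia list, the group means had the same order between genotypes as in CPM. Per 10000 counts of the 16 microglia genes, wild-type had 13.4 ± 2.86 counts of Gpr84, Dp16 4.11 ± 4.07, 5xFAD 24.0 ± 5.02 and 5xFAD-Dp16 23.2 ± 8.88 (SD over 4 libraries). The 5xFAD libraries, at 18.8 or more, lay above the wild-type ones, at 16.4 or less, while 5xFAD-Dp16 replicate 4, at 11.8, fell inside the wild-type range. For Hcar2 wild-type had 0, Dp16 1.38 ± 1.49, 5xFAD 5.11 ± 2.15 and 5xFAD-Dp16 8.39 ± 4.94. Between 5xFAD-Dp16 and 5xFAD the two-sided exact permutation test gave p = 0.914 for Gpr84 and p = 0.314 for Hcar2 (n = 4 each, smallest p 0.0286). The lower Gpr84 of Dp16 against wild-type was also present on this scale, 3.25-fold in the means, with the same exact permutation p of 0.0571 (n = 4 each). The microglia scores of Dp16 (-0.52 to -0.42) and wild-type (-0.50 to -0.27) overlapped.

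**Figure D2:**
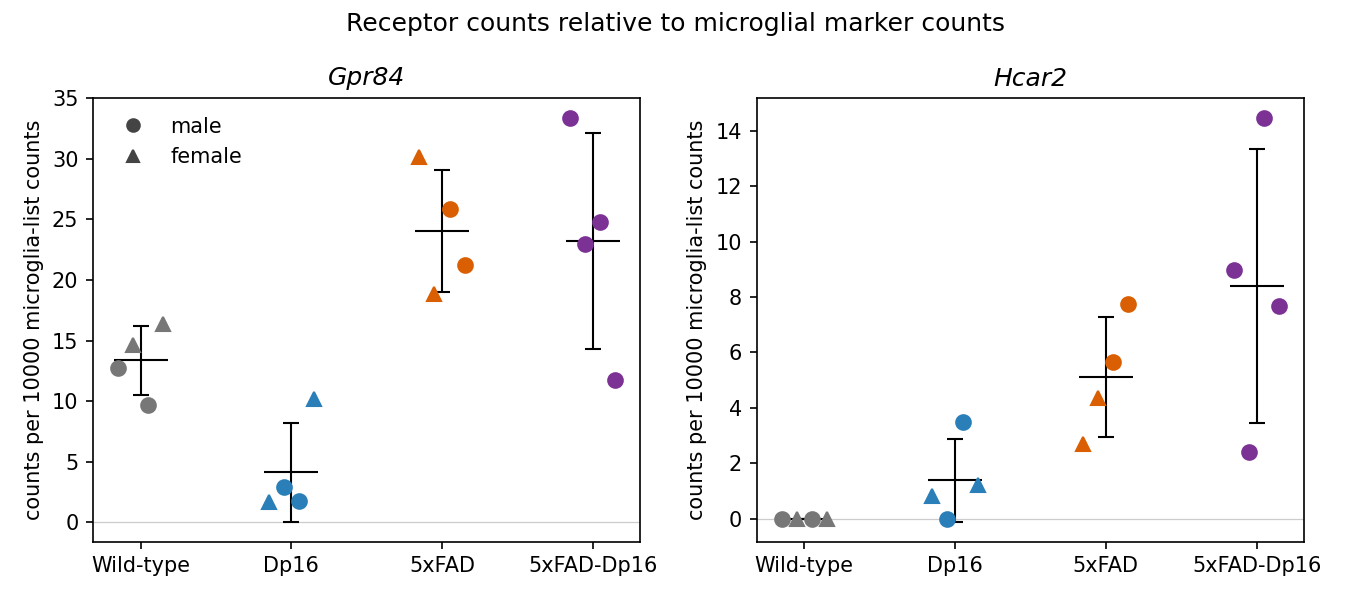
Counts of Gpr84 (left) and Hcar2 (right) per 10000 counts of the 16 microglia-list genes in each library, by genotype. Circles are males, triangles females, and whiskers the SD around the mean of 4. Dp16 replicates 1 to 3 lie between 1.66 and 2.88 for Gpr84 and replicate 4 is at 10.2, inside the wild-type range of 9.70 to 16.4.

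Markers of other cells that can carry these receptors were read as well. Of 12 neutrophil markers, 3 had enough counts for a test and Csf3r, a gene that microglia also express, was the one that rose with the transgenes. Between 0.827% and 0.983% of all tested genes were called higher in the comparisons with against without the transgenes. Without Csf3r the neutrophil list summed to 0.815 to 1.35 CPM for wild-type, 0.895 to 4.28 for Dp16, 0.192 to 20.8 for 5xFAD and 0.849 to 3.90 for 5xFAD-Dp16. Its upper end in 5xFAD is replicate 4. Ly6g, a defining neutrophil gene, had 1 count in that library and 0 in the other 15. Of 7 adipocyte markers none could be tested, their sum stayed at or below 0.951 CPM in every library, and Lep was at 0 in all 16. The 8 monocyte markers summed to 52.7 to 173 CPM in 5xFAD and 77.6 to 97.4 in wild-type, and none of the 3 tested passed in any comparison. Most of that sum came from Fn1 (749 to 2792 counts per library) and Vcan (201 to 495), which other cells also express, while Ly6c2, Ccr2, Plac8 and Chil3 had at most 9, 9, 12 and 23 counts in a library. The 7 border macrophage markers reached 17.7 CPM at most, with 0 of 6 tested members called. T cell markers reached at most 7.56 CPM and B cell markers 1.18, with no call among the 4 tested. The part these cells play in the receptor levels was not tested.

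Within the 8 libraries with the transgenes, Gpr84 and Hcar2 did not follow one another. Their log2 CPM gave r = -0.20 and rho = -0.24 (exact permutation p = 0.646 and 0.582). Gpr84 tended to be higher where the microglia score was higher, with r = 0.75 and rho = 0.64 (exact permutation p = 0.0426 and 0.0962, adjusted p = 0.171 and 0.240 over 5 relations). Without the 2 libraries farthest from the median score, r was 0.60 (exact permutation p = 0.222). Hcar2 leaned the other way, with r = -0.62 and rho = -0.74 (exact permutation p = 0.102 and 0.0458, adjusted p = 0.171 and 0.229), and r = -0.66 without the 2 farthest libraries. With the plaque microglia score, Gpr84 gave r = 0.67 and rho = 0.40 (exact permutation p = 0.0718 and 0.327), which rested on 2 libraries, since r was -0.39 without them. Hcar2 gave r = -0.17 and rho = -0.12 with that score (exact permutation p = 0.693 and 0.793). None of the 5 relations passed after adjustment. Within 5xFAD-Dp16 or 5xFAD alone, 4 libraries are too few for a correlation.

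**Figure D3:**
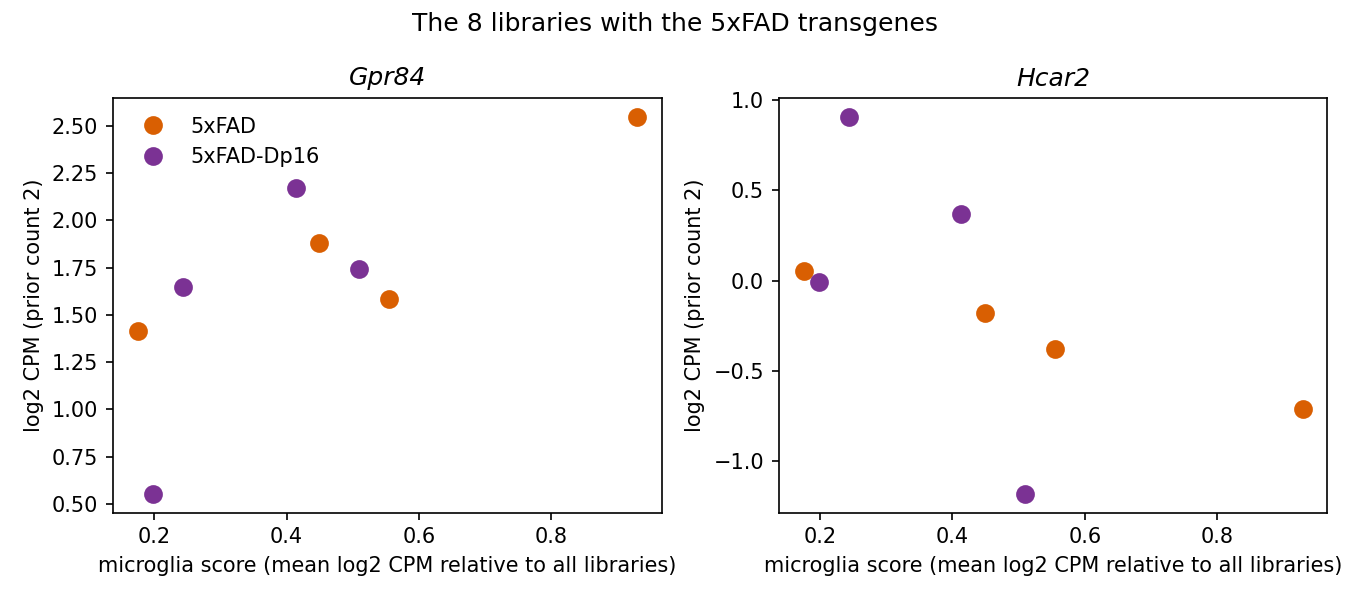
log2 CPM (prior count 2) of Gpr84 (left) and Hcar2 (right) against the microglia score in the 8 libraries with the transgenes, 1 point per library. 5xFAD replicate 1, at the right edge with a score of 0.93, has the highest Gpr84 and the second-lowest Hcar2 of the 8, and neither relation passed after adjustment.

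The genes most like each receptor over all 16 libraries are given as a description, since r over these libraries takes in the transgene difference by which the receptors were chosen. Over 14507 tested genes with a symbol other than a clone name, Gpr84 correlated best with Fes (r = 0.91), a tyrosine kinase, Spi1 (0.91), which encodes the transcription factor PU.1, and Ighm (0.91), an immunoglobulin heavy chain. Slc11a1, a metal transporter of phagosomes, Trem2, a lipid-sensing microglial receptor, and Fcgr1, an Fc receptor, came next (0.91 each). Over the 8 libraries with the transgenes, the r of these 6 genes with Gpr84 was 0.33 for Fcgr1, 0.73 for Trem2 and 0.55 to 0.62 for the other 4. Hcar2 correlated best with Clec7a (0.91), a receptor for fungal glucans, Samsn1 (0.91), an adaptor encoded in the duplicated segment, and Fcer1g (0.91), a signalling subunit of Fc receptors. Cst7 (0.90), a cystatin, Siglech (0.90), a microglial lectin, and Ctss (0.90), a lysosomal protease, followed. Over the 8 libraries, r with Hcar2 was 0.31 for Samsn1, 0.04 for Clec7a, -0.19 for Siglech, -0.42 for Cst7, -0.46 for Fcer1g and -0.57 for Ctss. Gpr84 and Hcar2 had r = 0.67 with each other over the 16 libraries, which placed Hcar2 375th among the genes most like Gpr84 and Gpr84 328th among those most like Hcar2.

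Of 16 other receptors for metabolites, protons and lipids, 6 had enough counts for a test and 1 of them, Gpr65, rose. The shares of all tested genes called higher were 0.965% in 5xFAD against wild-type, 0.983% in 5xFAD-Dp16 against wild-type and 0.827% in 5xFAD-Dp16 against Dp16. Gpr65, a proton-sensing receptor of immune cells, averaged 0.101 ± 0.0936 CPM without either alteration and 0.214 ± 0.0524 with the duplication, against 1.26 ± 0.514 for 5xFAD and 1.03 ± 0.186 for 5xFAD-Dp16 (SD over 4 libraries). Its lowest library with the transgenes (0.768 CPM) lay above its highest without (0.283 CPM). As for the 2 receptors, the share of tested genes that separate in this way was not counted, so nothing is read from it. Gpr65 passed the filter on low counts through the transgene groups alone, with 0 to 5 counts in wild-type libraries and 3 to 6 in Dp16 libraries. Its groups therefore had to differ, and its p-values give no separate support for a rise. Gpr65 rose by log2 3.56 ± 0.55 in 5xFAD against wild-type (edgeR adjusted p = 0.0022) and by log2 3.39 ± 0.61 in 5xFAD-Dp16 against wild-type (edgeR adjusted p = 0.00928). It did not pass in 5xFAD-Dp16 against Dp16 (log2 2.34 ± 0.55, edgeR adjusted p = 0.0663). The second of these calls is lost without wild-type replicate 3 (edgeR adjusted p = 0.0617), and both are lost in males alone or when the 2 groups are fitted by themselves (0.068 to 0.0952).

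The other 5 receptors with enough counts did not pass in any comparison. Hcar1, the neighbour and relative of Hcar2, averaged 2.26 ± 0.948 CPM for wild-type, 2.16 ± 1.10 for Dp16, 2.77 ± 3.28 for 5xFAD and 1.45 ± 0.475 for 5xFAD-Dp16. Its highest library was 5xFAD replicate 2 with 137 counts, which had 12 counts of Hcar2, while 5xFAD-Dp16 replicate 3, with 35 counts of Hcar2, had 41 of Hcar1. Gpr183, an oxysterol receptor, averaged 1.14 CPM in wild-type and 2.28 in 5xFAD (log2 1.00 ± 0.34, edgeR adjusted p = 0.314). Cnr2, the cannabinoid receptor of immune cells, averaged 0.388 CPM for wild-type, 0.185 for Dp16, 0.821 for 5xFAD and 0.751 for 5xFAD-Dp16. The proton sensor Gpr4 had 2.96 to 3.83 CPM as group means. Too few counts for a test were found for the fatty acid receptors Ffar1 (5 counts over all libraries), Ffar2 (19), Ffar3 (1) and Ffar4 (21), the succinate receptor Sucnr1 (5), the oxoglutarate receptor Oxgr1 (41), Gpr35 (120), Gpr132 (21) and the bile acid receptor Gpbar1 (4). Gpr31b had 0 counts in all 16. The median log2 change of the 6 tested receptors was 0.61 in 5xFAD against wild-type, 0.42 in 5xFAD-Dp16 against wild-type and 0.64 in 5xFAD-Dp16 against Dp16, against 0.02, 0.00 and 0.02 for all tested genes.

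**Figure D4:**
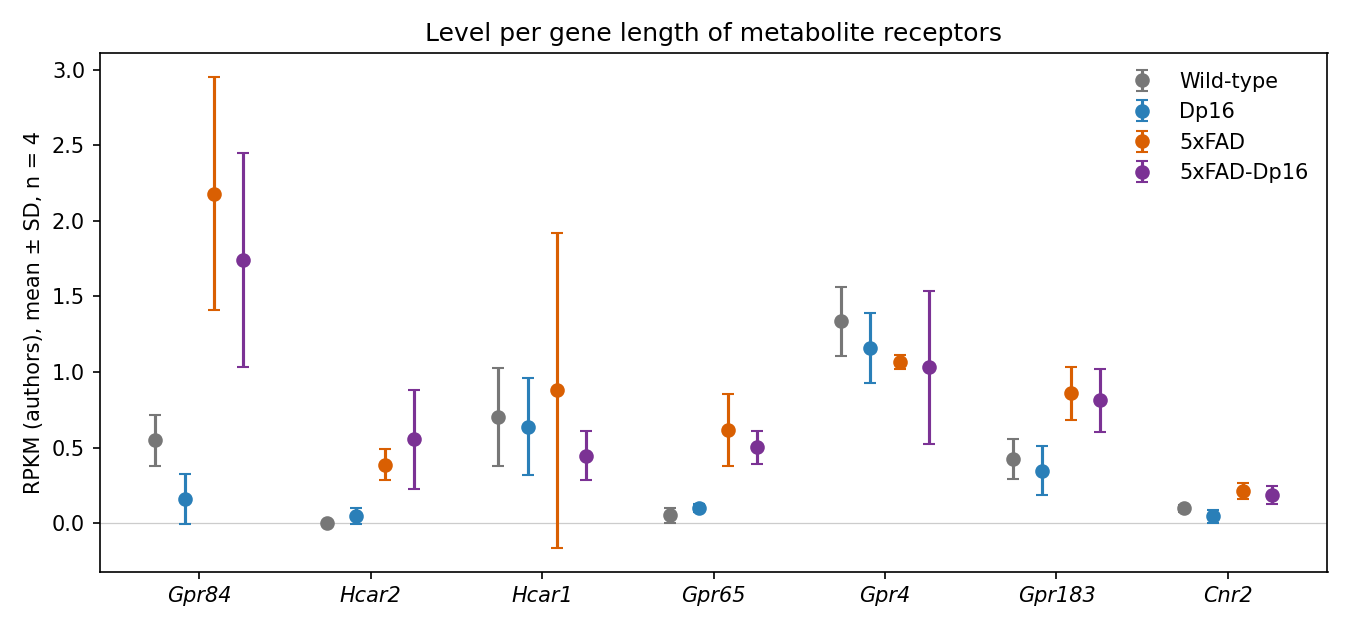
RPKM, a level per gene length, of Gpr84, Hcar2 and 5 other metabolite receptors with enough counts for a test. Points and whiskers give the mean ± SD of 4 libraries per genotype. Gpr84 goes from 0.547 in wild-type to 2.18 in 5xFAD, and of the other 5 receptors Gpr65 passed in 5xFAD against wild-type.

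A longer list held receptors for nucleotides and lysolipids, which microglia use to sense damage. Of 15 tested, Gpr34, Ptafr and P2ry12 rose in 5xFAD against wild-type, none passed in 5xFAD-Dp16 against wild-type, and Gpr34 and P2ry13 rose in 5xFAD-Dp16 against Dp16. Over all tested genes 0.965%, 0.983% and 0.827% were called higher in these comparisons. Gpr34, a lysophosphatidylserine receptor, went from 8.39 ± 2.30 CPM in wild-type to 23.5 ± 2.22 in 5xFAD (log2 1.49 ± 0.17, edgeR adjusted p = 0.000132). It was at 6.81 ± 1.29 CPM in Dp16 and 13.7 ± 1.66 in 5xFAD-Dp16 (log2 1.09 ± 0.19, edgeR adjusted p = 0.00717), a call lost without Dp16 replicate 2 (0.0667). Ptafr, the receptor of platelet-activating factor, rose by log2 1.53 ± 0.34 (edgeR adjusted p = 0.0448), and P2ry12, an ADP receptor, by log2 0.57 ± 0.13 (edgeR adjusted p = 0.0474). The call of Ptafr is lost on leaving out any 1 of 11 libraries and that of P2ry12 any 1 of 13, with adjusted p up to 0.175 and 0.188. P2ry13, another ADP receptor, rose by log2 0.97 ± 0.19 in 5xFAD-Dp16 against Dp16 (edgeR adjusted p = 0.0183), lost without any 1 of 6 libraries of those groups (up to 0.104). In males alone, the calls of this list other than that of Gpr34 in 5xFAD against wild-type were lost. Gpr34 and P2ry12 are also among the microglia markers.

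The signalling machinery that the receptors would use and the pathways of their ligands were read from lists. Of 37 tested genes of Gi signalling (G protein subunits, adenylyl cyclases, arrestins, receptor kinases and regulators), 1 rose: Rac2, a GTPase of blood-lineage cells, in 5xFAD-Dp16 against wild-type (log2 1.09 ± 0.25, edgeR adjusted p = 0.0487), lost without any 1 of 13 libraries (up to 0.264). Over all tested genes 0.983% were called higher in that comparison. Of 13 genes for making, using and carrying ketone bodies, and of 26 tested genes of fatty acid oxidation, none passed in any of the comparisons between genotypes. The median log2 change of the ketone list was 0.05 in 5xFAD against wild-type and that of fatty acid oxidation 0.11, against 0.02 for all tested genes. Of 14 tested genes of niacin and NAD metabolism, Naprt rose. It encodes the enzyme that commits niacin to NAD synthesis, and went from 4.33 ± 0.686 CPM in wild-type to 7.36 ± 0.958 in 5xFAD-Dp16 (log2 0.84 ± 0.17, edgeR adjusted p = 0.0224). That call is lost without wild-type replicate 1, 2 or 3 or 5xFAD-Dp16 replicate 1 or 4 (up to 0.122), and with no filter on low counts (0.0617).

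Of 20 tested genes of the NF-kB response, which inflammatory stimuli switch on in myeloid cells, 3 chemokines passed in at least 1 comparison. The number passing was 1 in 5xFAD against wild-type, 2 in 5xFAD-Dp16 against wild-type and 2 in 5xFAD-Dp16 against Dp16. Over all tested genes 0.965%, 0.983% and 0.827% were called higher in these comparisons. Wild-type libraries averaged 0.154 ± 0.176 CPM of Ccl3 and Dp16 libraries 0.218 ± 0.113, while 5xFAD averaged 4.12 ± 1.76 and 5xFAD-Dp16 4.05 ± 1.35. It rose in all 3 comparisons of libraries with against without the transgenes, by log2 4.71 ± 0.58, 5.00 ± 0.63 and 4.53 ± 0.62 (edgeR adjusted p at most 0.000858). The second of these is lost when the 2 groups are fitted by themselves (edgeR adjusted p = 0.0619). Cxcl10 rose in 5xFAD-Dp16 against wild-type (log2 3.05 ± 0.69, edgeR adjusted p = 0.0463) and Ccl4 in 5xFAD-Dp16 against Dp16, where all 4 Dp16 libraries were at 0 (edgeR adjusted p = 0.0459). Each of these calls is lost on leaving out any 1 of 13 libraries, with adjusted p up to 0.233 and 0.172. All 3 chemokines passed the filter on low counts through the transgene groups alone, so their p-values give no separate support for a rise. The other 17 genes did not pass, and the median log2 change of the list was 0.38 in 5xFAD against wild-type. In males alone, none of the calls of Rac2, Naprt, Cxcl10 and Ccl4 passed. No member of any of these pathway lists passed in 5xFAD-Dp16 against 5xFAD, in Dp16 against wild-type, in the interaction or between the sexes.

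The genes around each receptor were read next. Within 200 kb of Gpr84 there were 17 other annotated genes, of which 8 were tested and 1 passed, where 0.965% of all tested genes were called higher in 5xFAD against wild-type. This was Nckap1l, an actin regulator of blood-lineage cells 143 kb away, at 10.3 ± 0.785 CPM in wild-type and 22.7 ± 8.13 in 5xFAD (log2 1.12, edgeR adjusted p = 0.00465), a call lost in males alone (0.220). It also passed in 5xFAD-Dp16 against wild-type (log2 0.89, edgeR adjusted p = 0.0487), a call lost without any 1 of 13 libraries (up to 0.182). The nearest tested neighbours, Zfp385a at 3.28 kb and Copz1 at 8.37 kb, changed by log2 0.02 and -0.12 in 5xFAD against wild-type (edgeR adjusted p = 0.966 and 0.706). Within 200 kb of Hcar2 there were 17 others, of which 10 were tested and none passed in a comparison between genotypes.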

How the data were processed

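RNA sequencing of polyadenylated transcripts gave 16 libraries. Per the submitters' processing notes, bcl2fastq, FastQC 0.11.5, HISAT2 2.1.0, SAMtools 1.5 and HTSeq 0.6.1 were used with GRCm38. How strand was handled in counting is not given in these sources. The authors deposited raw read counts and RPKM values, and for both receptors the RPKM implied the annotated exon lengths, 1725 and 1930 bases. Both receptors and all gene lists were chosen with earlier results of these data known.

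The deposited counts were filtered with the edgeR default for 4 groups, which left 16684 genes, and scaled by TMM. A robust quasi-likelihood model with genotype and sex was fitted over all 16 libraries in edgeR 4.0.16 (R 4.3.3), with Benjamini-Hochberg adjustment over all tested genes and a threshold of 0.05. DESeq2 1.42.0 was an alternative. Log2 CPM used a prior count of 2. Zeros were given a floor of 3 counts per group. Gene positions came from a GRCm38 annotation (GENCODE) and the promoter window from RefSeq, which matched 1 of the 2 receptors. Named list genes were the metabolite receptors, up to 4 members per other list with the smallest p among those that passed, the 6 most correlated genes per receptor, and neighbours. In the metabolite receptor list, 1 gene is counted but not otherwise reported here. The steps were tested on simulated data.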

Additional observations from a re-analysis of the deposited data

Results flagged for a closer look

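In 3 of 38 groups of 4 libraries checked, 1 library stood apart from its group, by a gap of over 0.829 of the group's range. Chance flags about 1 in 20 groups. Gpr84 in Dp16 replicate 4, at 0.692 CPM, lay far above the other 3 Dp16 libraries (gap of 0.869 of the range), and its level per 10000 microglia counts, 10.2, stood apart in the same way (0.856). Cnr2 in 5xFAD replicate 2, at 1.11 CPM, lay above the other 5xFAD libraries (0.910). That library is the one with the highest midbrain and hypothalamus score. Whether tissue content set the Cnr2 value was not tested.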

How the results depend on the processing

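Gpr84 in Dp16 against wild-type was lower under every alternative tried, with log2 values from -2.54 to -1.38. It passed in 1 of them, no filter on low counts (log2 -1.68, edgeR adjusted p = 0.0119); leaving out single libraries gave -2.54 to -1.38. In 5xFAD-Dp16 against 5xFAD the sign of Gpr84 turned without a sex term (-0.29), in males alone (-0.010), without the 3 midbrain-marked libraries (-0.056) and with only the groups compared (-0.026), and single libraries moved it from -0.17 to 0.30. That of Hcar2 turned without these 3 libraries (-0.097), and single libraries moved it from -0.11 to 0.57. Neither passed under any of these. Per 10000 microglia counts, the Gpr84 difference went from -4.18 to 3.02 on leaving out single libraries. The relations of Hcar2 with Gpr84, Gpr84 with plaque microglia and Hcar2 with plaque microglia turned to r = 0.10, -0.39 and 0.25 without the 2 farthest libraries. With only the groups compared, Hcar2 had too few counts for a test in each comparison with wild-type or Dp16, and the interaction, which uses all groups, and sex have no such fit. Sex has none in males alone or without a sex term. The cause of these shifts was not tested.

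Counts of genes passing, in the order 5xFAD-Dp16 against 5xFAD, Dp16 against wild-type, 5xFAD against wild-type, 5xFAD-Dp16 against wild-type and 5xFAD-Dp16 against Dp16, were 25, 38, 294, 267 and 269 with DESeq2. With no filter on low counts they were 75, 210, 398, 355 and 620, with 128 for the interaction and 404 for sex, which was 21 with DESeq2. In males alone they were 0, 0, 44, 61 and 49, and with only the groups compared 0, 4, 76, 40 and 81. Without the midbrain libraries Dp16 against wild-type gave 23, and without a sex term 5xFAD-Dp16 against 5xFAD gave 17. Leaving out single libraries gave 0 to 11, 3 to 17, 109 to 189, 80 to 172 and 76 to 146.

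The replicate numbers did not pair the libraries: 9 of 24 same-numbered pairs had a correlation above 0.1, and 3 of 16 libraries correlated best with their own number. With the number as a replicate block, 5xFAD-Dp16 against 5xFAD gave 0 genes, Gpr84 stood at log2 0.10 there and at -1.67 in Dp16 against wild-type, and the sex difference of Hcar2 turned to log2 0.25. Hcar2 rests on 35 counts or fewer per library.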
